A study of Mus musculus with 42 samples.

Results

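The mouse genes examined were those of the translation initiation factors, the proteins that bring the small ribosomal subunit to a messenger RNA and place it at the start codon. They were taken by name: every gene whose name on the array is Eif followed by a digit from 1 to 6, except Eif4e and Eif4ebp1, with 1 probe per gene, the one with the highest mean over all arrays. This gave 51 genes, read by 119 probes, of 27598 genes and 41174 probes in all. Of the 51 genes, 35 had more than 1 probe and none had more than 5. The array uses older names for several of them, so that the subunits of eIF3 stand there under Eif3s names, and the Argonaute genes Ago1 to Ago4, which act in silencing by small RNAs and are not initiation factors, stand there as Eif2c1 to Eif2c4. They were kept as a group of their own. Eif1ax stands on the array as Eif1ay.

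Total RNA was measured on 42 one-colour arrays, each for 1 sample, from liver, quadriceps muscle and visceral fat of female C57BL/6 mice. Mice lacking 1 copy of Akt1 in all their cells (Akt1+/-), which encodes a kinase of the insulin and IGF1 pathway, were set against wild-type mice (Wt) with both copies, 8 and 35 weeks old by the labels. In each tissue there were 3 Wt and 3 Akt1+/- arrays at 8 weeks and 4 Wt and 4 Akt1+/- arrays at 35 weeks. The Akt1+/- line had been crossed back to C57BL/6, no Wt sample carried the deletion, and the labels do not say whether the 3 tissues of a number came from 1 mouse or whether each array is 1 animal, so that p-values measure the spread between these samples.

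Values are log2 intensities relative to the 75th percentile of the array, so that 0 is the level of a probe brighter than 75% of the array, and a difference of 1 is a doubling. Levels of different genes were not compared, because each probe has its own brightness. A difference was called when the Benjamini-Hochberg adjusted p of limma, fitted over all genes measured in the tissue, was under 0.05. Akt1 itself fell in Akt1+/- liver by 0.67 (SE 0.08, adjusted p = 0.0025) and in Akt1+/- fat by 0.55 (SE 0.07, adjusted p = 0.0069), and in muscle its difference was -0.58 (SE 0.11, adjusted p = 0.0745, not called). The 75th percentile of the arrays lay between 274 and 795 intensity units, and 56.5% to 68.6% of probes were well above background on an array. The markers of each tissue stood where its label puts them. Skeletal muscle markers summed to 11.7 to 12.2 in muscle and at most 0.98 in liver and 6.65 in fat, and adipocyte markers summed to 10.3 to 10.9 in fat, at most 8.12 in muscle and at most 6.72 in liver. Of the 6 hepatocyte markers 5 were found on the array, and these summed to between 10.3 and 10.9 in liver, at most 5.38 in muscle and at most 7.04 in fat. No slide and no scan day held both ages of a tissue. In none of the 3 tissues did the genotypes share a slide at 35 weeks.

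Initiation runs in steps. The factor eIF2 carries the initiator tRNA as a complex with GTP and is recharged by its exchange factor eIF2B, eIF1 and eIF1A keep the scanning ribosome open until a start codon is found, eIF3 holds the assembly together, and eIF4F, made of the cap-binding eIF4E, the scaffold eIF4G and the helicase eIF4A, recruits the messenger. Akt acts on this through mTORC1, which phosphorylates the 4E-binding proteins and so frees eIF4E, while 4 kinases that sense haem, double-stranded RNA, unfolded protein in the endoplasmic reticulum and lack of amino acids phosphorylate eIF2 and lower initiation. These controls act largely on the proteins, which arrays do not measure.

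Promoter windows of RefSeq on the mouse build GRCm38.p6, from 250 bases before to 50 bases after the start of transcription, were found for 42 of the 51 genes. Those of 4 genes are shown, each 5′ to 3′ on the strand of the gene, because these genes are described below. Eif2ak2 and Eif5a2 differed between the ages, and Eif4g3 and Eif3j1 between the tissues. Whether a motif has a part in these differences was not tested. Eif4g3 has 2 windows, and the one with the lower start coordinate is shown. Capitals mark letters that match 1 of 5 motifs looked for on both strands: GAAANNGAA (interferon response core), CACGTG and CAGCTG (E-boxes), CCGGAAG (Ets core) and TATAAA. The windows lie at chr17:78882523-78882822 (minus strand), chr3:28781027-28781326, chr4:137993205-137993504 and chr2:122028330-122028629 (plus strand).
Eif2ak2: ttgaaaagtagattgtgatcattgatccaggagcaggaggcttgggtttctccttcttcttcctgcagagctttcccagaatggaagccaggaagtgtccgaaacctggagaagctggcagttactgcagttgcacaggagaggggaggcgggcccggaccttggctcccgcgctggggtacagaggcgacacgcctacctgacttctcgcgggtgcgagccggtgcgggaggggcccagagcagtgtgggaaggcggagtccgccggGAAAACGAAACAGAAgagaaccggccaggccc
Eif5a2: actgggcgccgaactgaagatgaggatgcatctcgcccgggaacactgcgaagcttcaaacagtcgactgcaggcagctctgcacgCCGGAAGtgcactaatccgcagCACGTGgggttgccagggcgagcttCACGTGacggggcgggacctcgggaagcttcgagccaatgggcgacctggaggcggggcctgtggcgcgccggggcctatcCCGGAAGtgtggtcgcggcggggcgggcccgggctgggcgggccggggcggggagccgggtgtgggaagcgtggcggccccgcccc
Eif4g3: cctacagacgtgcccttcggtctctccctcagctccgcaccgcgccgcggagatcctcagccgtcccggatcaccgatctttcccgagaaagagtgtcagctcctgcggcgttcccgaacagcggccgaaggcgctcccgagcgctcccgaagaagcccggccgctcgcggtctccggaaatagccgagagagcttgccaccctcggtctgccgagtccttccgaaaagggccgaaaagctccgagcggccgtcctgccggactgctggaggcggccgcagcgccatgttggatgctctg
Eif3j1: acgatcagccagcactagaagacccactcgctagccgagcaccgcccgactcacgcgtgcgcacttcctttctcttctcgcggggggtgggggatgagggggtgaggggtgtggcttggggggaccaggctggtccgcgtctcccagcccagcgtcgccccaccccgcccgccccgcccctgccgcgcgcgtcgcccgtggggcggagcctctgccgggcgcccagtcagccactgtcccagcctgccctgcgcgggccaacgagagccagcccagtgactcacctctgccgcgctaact

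The Eif2ak2 window holds GAAANNGAA 2 times, overlapping each other, with first bases 18 and 24 bases after the start, and the Eif5a2 window holds CACGTG 2 times and CCGGAAG 2 times. The Eif4g3 and Eif3j1 windows hold none of the 5 motifs, which says only that these letters are not there. Over the 32851 promoter windows of the table, GAAANNGAA occurs in 8.56%, CACGTG in 7.15% and CCGGAAG in 8.86%, and counted by gene in 9.76%, 8.09% and 9.93% of genes with a window. Of the 42 members with a window, 4 (9.52%), 9 (21.4%) and 15 (35.7%) hold them. CAGCTG was found in 18.3% of genes and in 2 of the 42 members, and TATAAA in 15.7% and in 4.

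All but 2 of the 51 genes were well above background on every one of the 42 arrays. Eif2s3y, the Y-linked copy of the gene for the gamma subunit of eIF2, was well above background on 0 arrays of these female mice and was tested nowhere. Eif2b3, the gamma subunit of eIF2B, was well above background on 5 of 14 arrays in liver, 3 of 14 in muscle and 14 of 14 in fat, and was tested in fat and in the fit over all arrays. This left 50 genes tested in fat, 49 in muscle and 49 in liver.

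The first comparison was between the tissues, in 1 fit over all 42 arrays. No fat array shared a slide with liver or muscle. Liver and muscle shared a slide only among Akt1+/- arrays at 8 weeks. Tissue and slide can therefore not be told apart for fat, and hardly between liver and muscle. Most of the members differed, and muscle was most often the highest. The counts include the Argonautes, of which Ago2 and Ago4 were highest in muscle. Of 50 genes tested, 24 were highest in muscle past both tests (48%, against 29.5% of all genes), 9 were highest in liver (18%, against 26.1%) and 4 in fat (8%, against 26.4%), 1 of which, Eif2b3, was tested only through its level in fat and also stands among those counted as higher in fat below. Between liver and muscle 40 were called, 13 higher in liver (40.5% of all genes were) and 27 higher in muscle (45.3%). Between liver and fat 43 were called, 30 higher in liver (44.2%) and 13 higher in fat (42%), and between muscle and fat 46, of which 36 were higher in muscle (43.9%) and 10 in fat (43.7%). Of all 19856 genes tested, 85.8%, 86.2% and 87.6% were called in these comparisons, so the members' shares of 80%, 86% and 92% lay near the background. The split by direction against fat rests on the scaling. With normexp background correction and quantile normalization 17 genes were higher and 25 lower in liver than in fat (39.3% and 44.4% of all genes), and 21 higher and 20 lower in muscle than in fat (40% and 44.5%). With each array scaled to its median, which moved the median difference of all genes to 0.22 (liver minus fat) and 0.19 (muscle minus fat), the splits were 35 to 7 (50.5% and 36.3% of all genes) and 40 to 8 (48.8% and 39.2%). Under these scalings 19 and 26 members were highest in muscle (28.2% and 31.1% of all genes), 6 and 11 in liver (24.4% and 28.5%), and 12 and 1 in fat (28.8% and 22.3%).

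**Figure D1:**
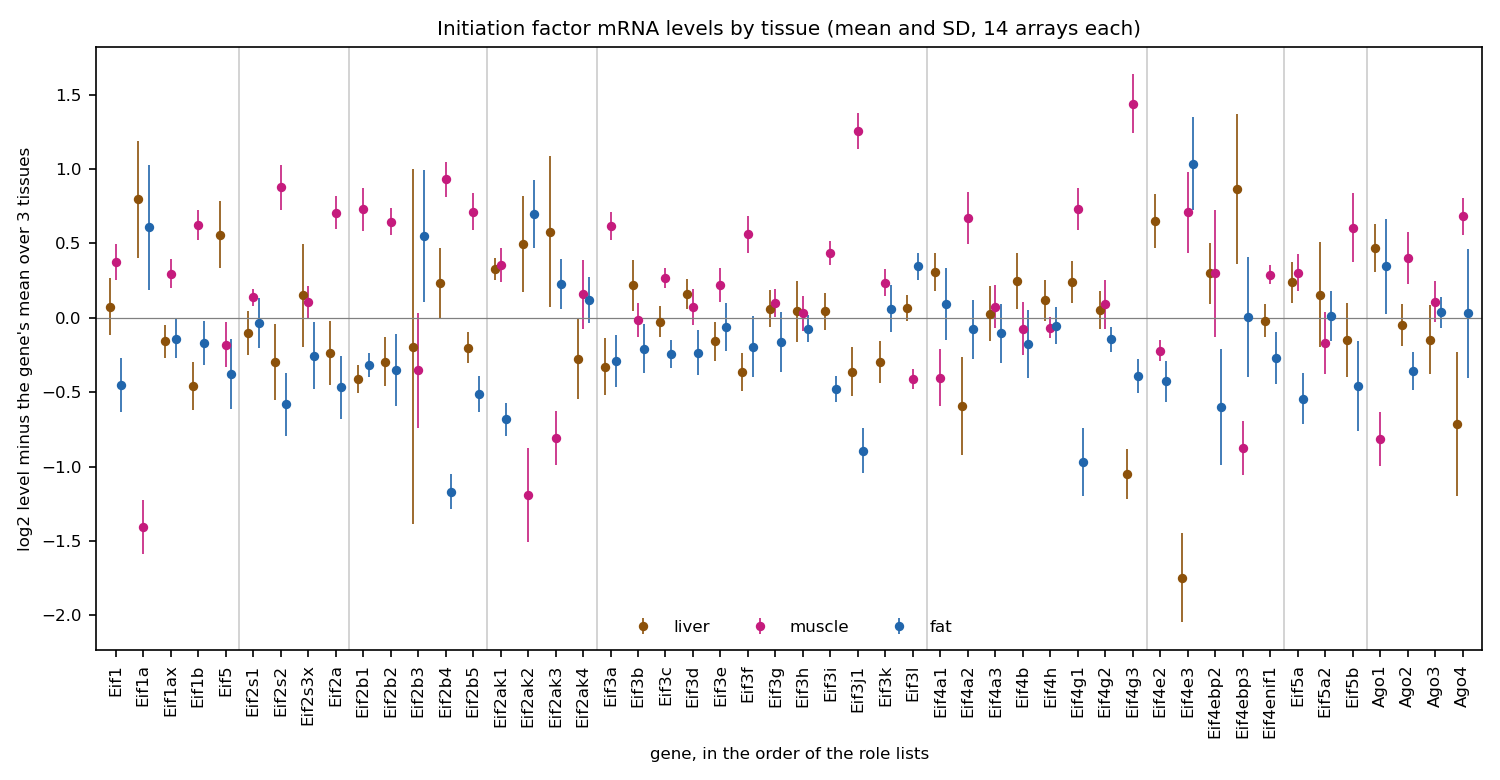
Level of the initiation factor genes in liver, muscle and fat, as log2 level minus the gene's own mean over the tissues. Eif2s3y is not drawn. Eif4e3 lies far lower in liver than in muscle or fat, and Eif4g3 and Eif3j1 lie highest in muscle.

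In the eIF4F group close relatives differed in their order. Eif4g3, a scaffold of the eIF4G type, ranged from 5.22 through a median of 5.84 to 5.99 over the 14 muscle arrays. Its lowest, median and highest levels were 2.87, 3.29 and 3.63 in liver and 3.77, 3.91 and 4.24 in fat. No 2 tissues overlapped, and the muscle mean was 5.67-fold above liver (difference 2.50 on the log2 scale, SE 0.06, adjusted p = 3.77e-28) and 3.57-fold above fat (1.84, SE 0.06, adjusted p = 5.06e-24). Eif4g1, the other general scaffold, was also highest in muscle, but its lowest tissue was fat, 3.28-fold below muscle (1.72, SE 0.06, adjusted p = 1.53e-22) and 2.32-fold below liver (1.21, SE 0.06). Eif4a1 and Eif4a2 encode 2 near-identical eIF4A helicases. Eif4a1 was highest in liver and lowest in muscle (liver minus muscle 0.73, SE 0.06, adjusted p = 2.27e-13), and Eif4a2 was highest in muscle and lowest in liver (muscle above liver by 1.22, SE 0.06, adjusted p = 1.54e-18). With normexp and quantile normalization Eif4a1 was instead highest in fat, and Eif4a2, still lowest in liver, was no longer called higher in muscle than in fat.

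Among the cap-binding relatives and 4E-binding proteins, Eif4e3 stood out in liver. Eif4e3 encodes a relative of eIF4E that binds the cap, and its probe lies at chr6:99592461-99597723 of build mm8. Its lowest, median and highest levels were 0.86, 1.34 and 1.98 in fat, 0.62, 1.15 and 1.45 in muscle, and -1.94, -1.32 and -0.93 in liver. Every liver array lay below every muscle and fat array, and the liver mean was 7.04-fold below fat (a difference of 2.82, SE 0.08, adjusted p = 1.79e-26) and 5.61-fold below muscle (2.49, SE 0.08, adjusted p = 4.46e-25). Its relative Eif4e2, a cap-binding protein tied to repression of translation, had the opposite order, highest in liver, 2.08-fold above fat (1.06, SE 0.04, adjusted p = 1.67e-21) and 1.80-fold above muscle. With the mean of its probes the call against muscle was lost (adjusted p = 0.186), and 1 of its probes well above background on all arrays gave -1.32 there. Of the 4E-binding proteins, which hold eIF4E away from eIF4G, Eif4ebp3 was highest in liver, 3.40-fold above muscle (1.76, SE 0.12, adjusted p = 3.7e-15), and Eif4ebp2 was lowest in fat, 1.80-fold below liver (0.85, SE 0.08), with liver and muscle differing by 0.03 (SE 0.08, adjusted p = 0.736).

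In the groups that handle the initiator tRNA, muscle was mostly above both other tissues. The 3 tested subunit genes of eIF2 were higher in muscle than in fat, as was Eif2a, which encodes a separate factor grouped with them. The sign of Eif2s1 turned with normexp and quantile normalization. The other probe of Eif2a, well above background on 41 arrays, gave -0.37 for muscle minus fat against 1.16 for the brightest. For liver minus muscle it gave 0.98 against -0.93. With the mean of probes Eif2a and Eif2s1 were no longer among the genes highest in muscle. The largest difference between muscle and fat was that of Eif2s2, the beta subunit, at 2.82-fold (1.49, SE 0.06). Of the 5 eIF2B genes 4 were higher in muscle than in liver and in fat. Eif2b4, the delta subunit of eIF2B, had lowest, median and highest levels of 4.68, 4.88 and 5.09 in muscle, 3.74, 4.19 and 4.60 in liver, and 2.63, 2.76 and 3.02 in fat. The muscle and liver arrays did not overlap the fat arrays, and muscle was 4.30-fold above fat (2.10, SE 0.07, adjusted p = 1.18e-24) and liver 2.67-fold above fat (1.41, SE 0.07, adjusted p = 1.01e-19). Eif2b3, the fifth, passed the filter on dim probes only through fat, where its lowest level was -5.56 and its median -4.79. Most of its liver and muscle values were not well above background, so no difference is given for it.

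The 4 eIF2 kinases split by tissue. Eif2ak2 encodes PKR, which senses double-stranded RNA and is induced by interferon, and its promoter window is the first of those shown above. Its lowest, median and highest levels were -3.06, -2.45 and -1.99 in muscle, -1.34, -0.68 and -0.21 in liver, and -1.13, -0.52 and -0.16 in fat, so muscle lay below both other tissues on every array, 3.60-fold below fat (1.85, SE 0.09, adjusted p = 3.76e-19) and 3.10-fold below liver (1.63, SE 0.09, adjusted p = 1.06e-17). Eif2ak3, the kinase PERK of the endoplasmic reticulum, was highest in liver, 2.71-fold above muscle (1.44, SE 0.09, adjusted p = 6.84e-17) and 1.30-fold above fat. Eif2ak1, the haem-regulated kinase, was lower in fat, 2.01-fold below liver (1.01, SE 0.04) and 2.05-fold below muscle (1.04, SE 0.04). Eif2ak4, the amino acid sensor GCN2, was lower in liver, 1.34-fold below muscle (0.42, SE 0.06) and 1.29-fold below fat (0.37, SE 0.06). In whole tissue, fewer cells of a type and less RNA per cell cannot be told apart. Macrophage markers, which belong to cells that express Eif2ak2, summed to 7.76 to 8.24 in fat, 5.87 to 7.20 in liver and 4.64 to 6.22 in muscle, and their part in the order of Eif2ak2 was not tested.

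Of the 12 eIF3 genes, 11 were higher in muscle than in fat and 1, Eif3l, was lower, but 6 of the 11 were highest in fat with normexp and quantile normalization. Of these, Eif3b, Eif3c, Eif3d, Eif3g and Eif3h were lowest in fat here, and Eif3e was highest in muscle. With the mean of its probes Eif3d was lowest in muscle and highest in liver, its other probe giving -1.03 for muscle minus fat against 0.30 for the brightest. Eif3j1, a loosely bound subunit, had lowest, median and highest levels of 5.53, 5.77 and 5.94 in muscle, 3.83, 4.19 and 4.40 in liver, and 3.45, 3.65 and 3.93 in fat. The muscle arrays lay above all others, 4.42-fold above fat (2.14, SE 0.05, adjusted p = 2.31e-27) and 3.07-fold above liver (1.62, SE 0.05, adjusted p = 3.97e-24). The 11 other eIF3 genes differed less, and no difference of theirs between muscle and fat exceeded 0.91.

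Among the genes for start codon selection, Eif1a was lowest in muscle. Its lowest, median and highest levels were -0.01, 0.34 and 0.64 in muscle, 2.00, 2.54 and 3.28 in liver, and 1.76, 2.30 and 3.01 in fat. Muscle lay below both other tissues on every array, 4.68-fold below liver (2.23, SE 0.11, adjusted p = 1.7e-19) and 3.98-fold below fat (1.99, SE 0.11, adjusted p = 4.83e-18). Eif1ax, the X-linked gene for the same factor, was instead highest in muscle, 1.39-fold above liver (0.47, SE 0.04) and 1.37-fold above fat, with a liver minus fat difference of -0.02. Its other probe, also well above background on all 42 arrays, put muscle above fat by 2.91 and liver above fat by 1.33, and with normexp and quantile normalization the call between muscle and fat was lost (adjusted p = 0.0795). Of the elongation and joining factors, Eif5a was lower in fat (1.73-fold below liver) and its relative Eif5a2 lower in muscle (1.23-fold below liver), although with the mean of its probes Eif5a2 was lowest in liver. Of the Argonautes, Ago4 was 2.53-fold lower in liver than in muscle (1.34, SE 0.09, adjusted p = 4.19e-15) and Ago1 2.27-fold lower in muscle than in fat (1.18, SE 0.07, adjusted p = 9.55e-18).

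Where a called gene had further probes well above background on all arrays, these mostly went the same way as the brightest. This held for all 28 such genes between muscle and fat, for 21 of 26 between liver and muscle, and for 21 of 25 between liver and fat. The exceptions were Eif2s1, Eif3b, Eif4b, Eif4e2 and Eif5 between liver and muscle, and Ago2, Ago4, Eif2ak1 and Eif5b between liver and fat. Probes short of that limit were not counted and went both ways between muscle and fat. Those opposite to the brightest included probes of Eif2a (41 arrays, -0.37 against 1.16), Eif2s2 (38 arrays, -0.53 against 1.49) and Eif3d (values given above). A probe of Eif2ak3 (32 arrays, -1.30 against -1.06) went the same way.

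The next comparison asked what the loss of 1 Akt1 copy did, over both ages. Few members were called. In liver 1 of 49 was called (2.04%), where 6.03% of all 17507 genes were, in muscle 0 of 49, where 0% of 17115 were, and in fat 1 of 50 (2%), where 0.829% of 18342 were. The members tested had a median difference of 0.04 in fat, -0.07 in muscle and -0.05 in liver, and over all genes the median was -0.01, 0.00 and 0.02. By direction, the Akt1+/- mean was the lower one for 16 of 50 in fat, 39 of 49 in muscle and 32 of 49 in liver, and over all genes for 51.8%, 50.6% and 47%. With normexp and quantile normalization the liver count turned to 23 of 49, with a median of 0.02. Scaled to the median, 14 members were called in liver, and every one was lower in Akt1+/- samples, where 17.6% of all genes were called and 15% were called lower. That scaling moved the median of all liver genes to -0.11.

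**Figure D2:**
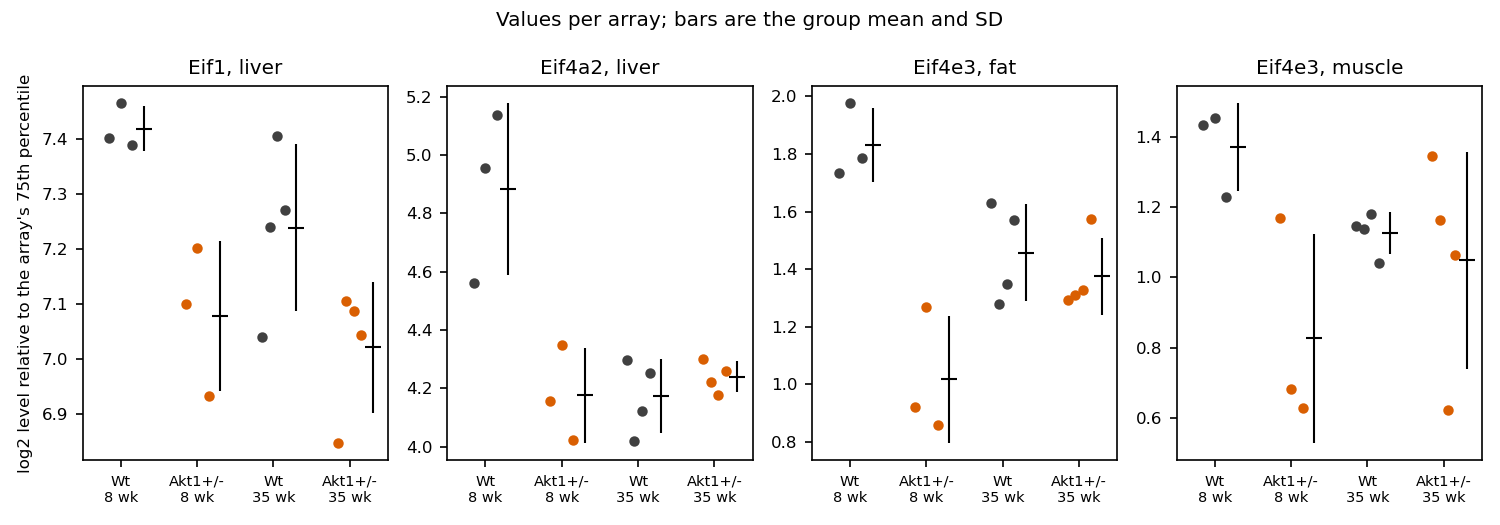
Values of Eif1 and Eif4a2 in liver and of Eif4e3 in fat and muscle on each array (points), as log2 intensity relative to the array's 75th percentile, by genotype and age, with the group mean and SD as bars and an axis of its own for each panel. In fat the 3 Akt1+/- arrays at 8 weeks lie at 0.86 to 1.27 for Eif4e3, below the 3 Wt arrays at 1.73 to 1.98, and at 35 weeks the genotypes overlap.

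The gene called in liver was Eif1, the small factor that guards start codon choice, whose probe lies at chr11:100137465-100137525 of mm8. The 8-week levels were 7.40, 7.47 and 7.39 in Wt and 7.10, 7.20 and 6.93 in Akt1+/- liver. At 35 weeks they were 7.04, 7.24, 7.41 and 7.27 in Wt and 6.85, 7.10, 7.09 and 7.04 in Akt1+/-. The genotypes did not overlap at 8 weeks and overlapped at 35 weeks, where each Akt1+/- value lay below the Wt value of its replicate number. Over both ages Eif1 was lower by 0.28 (SE 0.08, adjusted p = 0.0493), just past the threshold. Another probe carrying the Eif1 name, placed by the array file on another chromosome (chr1:171290399-171290458), gave 0.00. The call was lost with normexp and quantile normalization (lower by 0.06, adjusted p = 0.562), without the filter on dim probes (adjusted p = 0.103), with the mean of both probes (lower by 0.14, adjusted p = 0.469), with the replicate number as a block (adjusted p = 0.0501) and with slides treated as random (adjusted p = 0.101), and in 12 of the 14 fits that left out 1 liver array. With normexp and quantile normalization the gene called in its place was Eif4g1, higher in Akt1+/- liver.

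The gene called in fat was Eif4e3. At 8 weeks its levels were 1.73, 1.98 and 1.79 in Wt and 0.92, 1.27 and 0.86 in Akt1+/- fat. At 35 weeks they were 1.63, 1.28, 1.35 and 1.57 in Wt and 1.29, 1.31, 1.33 and 1.57 in Akt1+/- fat. The groups stood apart at 8 weeks and overlapped at 35 weeks. Over both ages Eif4e3 was lower by 0.45 (SE 0.09, adjusted p = 0.0468). This call was lost with normexp and quantile normalization (lower by 0.37, adjusted p = 0.055), median scaling (adjusted p = 0.06), no filter (adjusted p = 0.0843), the replicate block (adjusted p = 0.0696) and the test of the study's methods (adjusted p = 0.0616), and in 11 of the 14 fits that left out 1 fat array.

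In muscle the 3 members with the lowest p were Eif4a3, Eif4a2 and Eif4e3, and none passed the adjusted threshold. Eif4a3, a helicase of the exon junction complex, stood at 1.63, 1.71 and 1.61 in Wt and 1.49, 1.39 and 1.37 in Akt1+/- muscle at 8 weeks, with no overlap. At 35 weeks it stood at 1.58, 1.60, 1.62 and 1.82 in Wt and 1.51, 1.62, 1.27 and 1.49 in Akt1+/- muscle, which overlap, and the difference over both ages was -0.21 (unadjusted p = 0.0069, adjusted p = 0.156 in limma). Eif4a2 differed by 0.16 (adjusted p = 0.197). Eif4e3 differed by -0.31 (adjusted p = 0.205), with 8-week levels of 1.43, 1.45 and 1.23 in Wt and 1.17, 0.68 and 0.63 in Akt1+/- muscle, and 35-week levels of 1.14, 1.14, 1.18 and 1.04 in Wt and 1.35, 1.16, 0.62 and 1.06 in Akt1+/- muscle. In limma 7 of 49 members had an unadjusted p under 0.05 in muscle, where 18.5% of all genes did. By the two-way test of the study's methods, 4 of the 49 passed its unadjusted threshold of 0.01, as did 5.55% of all genes, and 0 passed after adjustment. At 8 weeks 5 marker lists did not overlap between the genotypes in muscle. Adipocyte markers summed to 7.05 to 7.13 in Wt and 7.44 to 8.12 in Akt1+/- samples, macrophage markers to 4.64 to 5.65 and 5.67 to 6.22, endothelium markers to at most 3.72 and at least 3.92, lymphocyte markers to -1.16 to -0.62 and -0.47 to -0.21, and erythroid markers to 7.18 to 7.68 and 6.63 to 6.86. Their part was not tested.

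At 8 weeks alone 1 liver member was called (2.19% of all liver genes were), 0 in muscle (0%) and 1 in fat (1.86%). In muscle 6 of 49 members had an unadjusted p under 0.05 in limma, where 15.8% of all genes did. The liver gene was Eif4a2, the eIF4A helicase that was lowest in liver, with its probe at chr16:23028733-23028792 of mm8. The 8-week levels were 4.56, 4.95 and 5.14 in Wt and 4.16, 4.35 and 4.02 in Akt1+/- liver, with no overlap, and Eif4a2 was lower by 0.71 (SE 0.14, adjusted p = 0.0287). Its other probe gave -0.91. At 35 weeks the levels were 4.30, 4.02, 4.12 and 4.25 in Wt and 4.30, 4.22, 4.18 and 4.26 in Akt1+/- liver, a difference of 0.07 (SE 0.12, adjusted p = 0.841). The call at 8 weeks was lost without liver Wt 8-week replicate 2 (adjusted p = 0.105), Wt 8-week replicate 3 (0.101) or Akt1+/- 8-week replicate 3 (0.0949), without the filter (0.0651), with the replicate block (0.0602) and with slides treated as random (0.0585). At 8 weeks no slide held livers of both genotypes, so slide and genotype cannot be told apart there. Adipocyte markers summed to 3.45 to 3.75 in the 3 Wt and 4.48 to 6.72 in the 3 Akt1+/- livers at 8 weeks, macrophage markers to 5.87 to 6.21 and 6.44 to 6.75, and lymphocyte markers to 0.63 to 0.93 and 1.21 to 1.38. In the same livers hepatocyte markers summed to 10.7 to 10.8 in Wt and 10.4 to 10.6 in Akt1+/-, mesothelium markers to -0.61 to -0.03 and -1.92 to -0.62, and pancreas markers to 2.52 to 3.16 and 1.55 to 2.51. Their part in the result was not tested.

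The fat gene at 8 weeks was again Eif4e3, lower by 0.81 (SE 0.14, adjusted p = 0.0351), and its other probe gave -0.64. Of the 8-week fat arrays, 1 Wt array shared a slide with the 3 Akt1+/- arrays, and within that slide the difference was -0.77. The call was lost without fat Wt 8-week replicate 2 (adjusted p = 0.179), Akt1+/- 8-week replicate 1 (0.0733) or replicate 3 (0.0951), without Akt1+/- 35-week replicate 3 (0.0528) and without the filter (0.0686). In muscle at 8 weeks the Eif4e3 difference was -0.54 (SE 0.18, adjusted p = 0.196), and within the slide that held 3 Wt and 1 Akt1+/- array it was -0.20. Mesothelium markers summed to 4.42 to 4.97 in Wt and 5.08 to 5.63 in Akt1+/- fat at 8 weeks, and lymphocyte markers to 1.35 to 1.48 and 1.62 to 1.98. Hepatocyte markers summed to 6.55 to 6.89 in Wt and 6.37 to 6.43 in Akt1+/- fat, and pancreas markers to 2.35 to 2.59 and 1.91 to 2.00. Their part was not tested.

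At 35 weeks alone no member was called in limma in liver, muscle or fat, where 3.43%, 0.0993% and 1.71% of all genes were called, and 3, 6 and 5 members had an unadjusted p under 0.05, as did 16.9%, 9.11% and 12.3% of all genes. The change of the genotype difference with age, the interaction, was called for 0 members in all 3 tissues as well, where 0.543%, 0% and 1.57% of all genes were called, with 4, 1 and 8 members at an unadjusted p under 0.05, against 13.9%, 8.39% and 20.1% of all genes. The nearest were Eif4e3 in fat (0.73, SE 0.18, adjusted p = 0.0662) and Eif4a2 in liver (0.78, SE 0.19, adjusted p = 0.0966), which both passed in the fit over 42 arrays, and Eif4e3 also with slides treated as random. The genotype difference of these genes is therefore not shown to differ between the ages in the main fits by tissue.

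**Figure D3:**
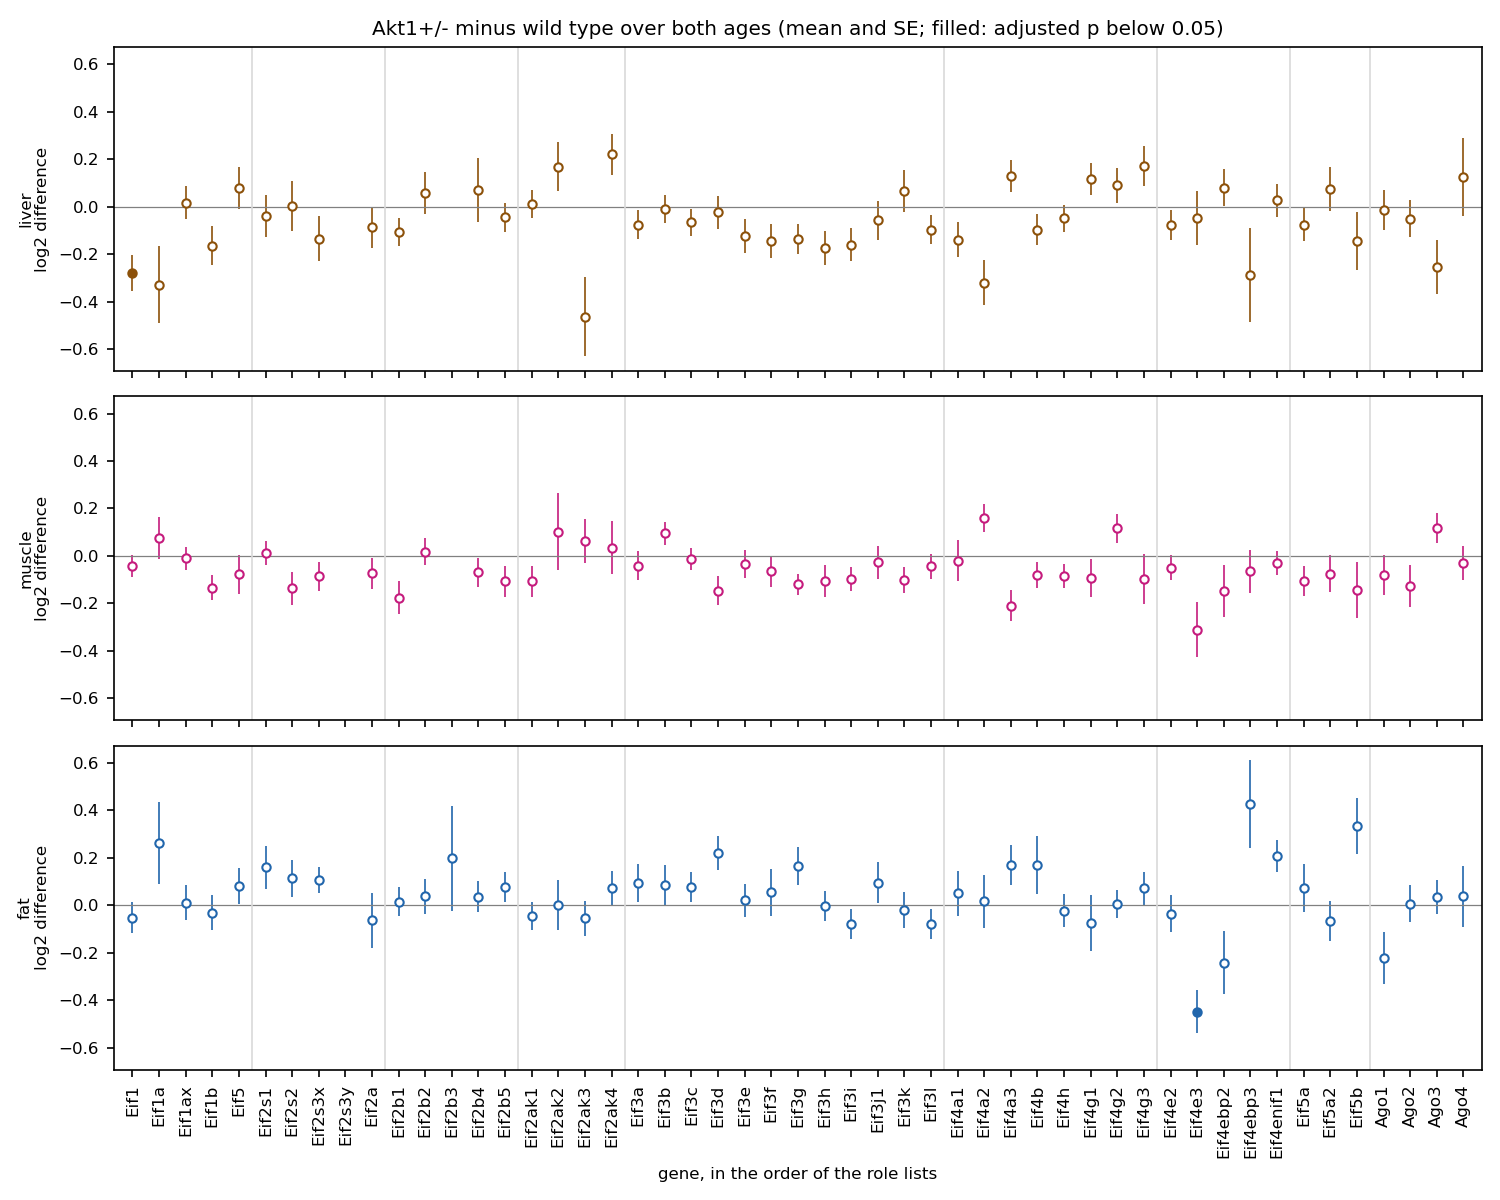
Akt1+/- minus Wt difference of the members in log2 units, over both ages, in liver, muscle and fat, with SE as bars and called members filled. Eif1 in liver and Eif4e3 in fat were called, both lower in Akt1+/- samples, and no member was called in muscle.

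The third comparison was between 35 and 8 weeks, over both genotypes. Many more members were called than for genotype: 20 of 49 in liver (40.8%, where 34.8% of all genes were), 7 of 49 in muscle (14.3%, where 31.2% were) and 8 of 50 in fat (16%, where 19.3% were). The directions were mixed. In liver 11 rose and 9 fell (19.8% and 15% of all genes did), in muscle 5 rose and 2 fell (16.8% and 14.4%), and in fat 4 rose and 4 fell (9.96% and 9.33%). The members' median change was 0.06 in fat, 0.03 in muscle and -0.01 in liver, and over all genes it was 0.01, 0.01 and 0.02. Scaled to the median, the liver calls were 2 up and 23 down (11.3% and 35.4% of all genes), with the median change of all liver genes at -0.18. Because the ages of a tissue shared no slide and no scan day, age cannot be told apart from slide or scan in any of these results.

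**Figure D4:**
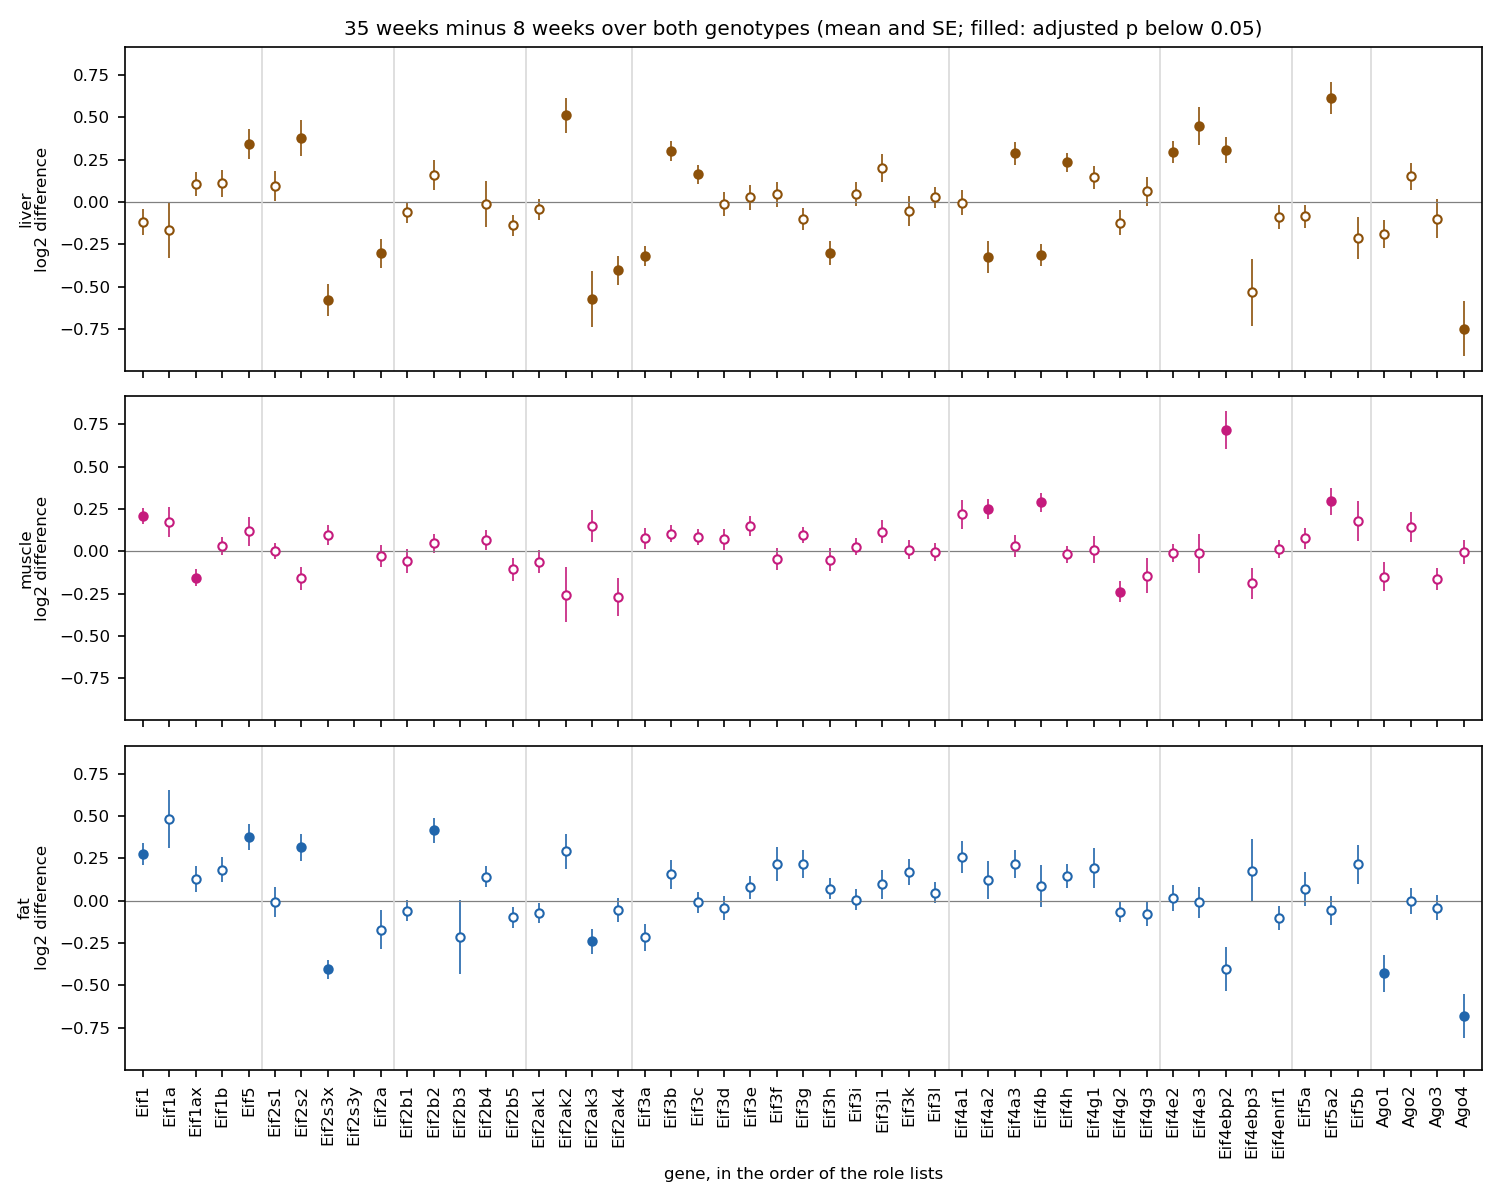
Difference between 35 and 8 weeks (35 minus 8) of the members in log2 units in liver, muscle and fat, with the called members marked. Eif5a2 (0.61) and Eif2ak2 (0.51) rose most in liver, Eif4ebp2 (0.72) in muscle, and Ago4 fell in liver (by 0.75) and fat (by 0.68).

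In liver, the largest rise was that of Eif5a2, a relative of the hypusine-bearing factor eIF5A. At 8 weeks it stood at -1.42, -1.38 and -1.20 in Wt and -1.23, -1.46 and -1.30 in Akt1+/- liver. At 35 weeks it stood at -0.82, -1.06, -0.62 and -0.66 in Wt and -0.51, -0.51, -0.91 and -0.66 in Akt1+/- liver. All 8 older livers lay above all 6 younger ones, a rise of 0.61 (SE 0.09, adjusted p = 0.0004). Its other probe, well above background on 3 of the 14 liver arrays, gave -0.24. The kinase gene Eif2ak2 rose by 0.51 (SE 0.10, adjusted p = 0.0024), from levels of -1.34 to -0.77 in the 6 younger livers to -0.82 to -0.21 in the 8 older ones, and has 1 probe. Macrophage markers summed to 5.87 to 6.75 in younger and 6.47 to 7.20 in older liver, and their part was not tested.

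Of the other kinases Eif2ak4 and Eif2ak3 fell in liver. Eif2ak4 fell by 0.40 (SE 0.09, adjusted p = 0.0036), from -0.98 to -0.41 at 8 weeks to -1.41 to -0.82 at 35 weeks, with some overlap. Eif2ak3 fell by 0.57 (SE 0.17, adjusted p = 0.0194), a call lost without liver Wt 8-week replicate 2, the array with the highest level. At 8 weeks its levels were 0.44, 0.92 and 0.74 in Wt and -0.13, -0.20 and -0.14 in Akt1+/- liver, and at 35 weeks -0.58, -0.54, 0.20 and -0.14 in Wt and -0.77, -0.66, 0.03 and 0.07 in Akt1+/- liver, so the 3 young Wt livers lay above all others. The genotype difference at 8 weeks was -0.86 and was not called (adjusted p = 0.0906), but it was called with the replicate block, with the mean of its probes and in the fit over 42 arrays.

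Among the factors that carry the initiator tRNA, Eif2s2 rose and Eif2s3x fell in liver. Eif2s2 rose by 0.38 (SE 0.10, adjusted p = 0.015), a call lost with median scaling, and with the mean of its probes the difference was -0.0047 (adjusted p = 0.971). Eif2s3x, the X-linked gamma subunit, fell by 0.58 (SE 0.10, adjusted p = 0.0007), from 3.91, 4.04 and 3.95 in Wt and 3.74, 3.44 and 3.89 in Akt1+/- liver to 3.17, 3.18, 3.43 and 3.21 in Wt and 3.01, 3.15, 3.38 and 3.47 in Akt1+/- liver. The younger Akt1+/- liver at 3.44 lay within the range of the older ones. No eIF2B gene was called in liver. Of the eIF3 genes 2 rose (Eif3b and Eif3c, the second with a call lost in 11 of the 14 fits that left out 1 liver array) and 2 fell (Eif3a and Eif3h), and of the eIF4F group 2 rose (Eif4a3 and Eif4h) and 2 fell (Eif4a2 and Eif4b). Of the 5 cap-binding relatives and 4E-binding proteins 3 rose: Eif4e3 by 0.45 (SE 0.11, adjusted p = 0.0096), Eif4ebp2 by 0.31 and Eif4e2 by 0.29. The Argonaute gene Ago4 had the largest fall, 0.75 (SE 0.16, adjusted p = 0.0041), from -1.51 to -0.52 at 8 weeks to -1.99 to -1.46 at 35 weeks, with an overlap, but with the mean of its probes the difference was 0.0204 (adjusted p = 0.892).

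In muscle, Eif4ebp2 led. It encodes a 4E-binding protein, a repressor that mTORC1 inactivates. At 8 weeks it stood at 1.89, 2.23 and 2.04 in Wt and 2.07, 1.94 and 2.06 in Akt1+/- muscle, and at 35 weeks at 2.84, 3.27, 2.70 and 2.74 in Wt and 2.83, 2.70, 2.26 and 2.70 in Akt1+/- muscle. All 8 older samples lay above all 6 younger ones, and the rise was 0.72 (SE 0.11, adjusted p = 0.0006). The other 4 rises in muscle were smaller. Eif5a2 rose by 0.29 (SE 0.08, adjusted p = 0.0136), with an opposite difference of -0.28 at its dimmer probe, well above background on 8 of the 14 arrays. Eif4b, which stimulates the helicase eIF4A, rose by 0.29 (SE 0.06, adjusted p = 0.0024), and the 6 younger samples (2.18 to 2.48) lay below the 8 older ones (2.52 to 2.82). Eif4a2 rose by 0.25 (SE 0.06, adjusted p = 0.0072) and Eif1 by 0.21 (SE 0.05, adjusted p = 0.0053), a call lost with normexp, median scaling and the mean of its probes. The 2 genes that fell were Eif4g2, an eIF4G relative without the eIF4E site, by 0.24 (SE 0.06, adjusted p = 0.0124), and Eif1ax, by 0.15 (SE 0.05, adjusted p = 0.0317). The Eif1ax call was lost without the filter, with the mean of its probes (adjusted p = 0.161), in the fit over 42 arrays and in 6 of the 14 fits that left out 1 muscle array. No eIF2, eIF2B, kinase, eIF3 or Argonaute gene was called in muscle. Skeletal muscle markers summed to 11.7 to 12.0 at 8 weeks and 12.0 to 12.2 at 35 weeks, and their part was not tested.

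In fat the 4 rises were in the groups for start codon selection, eIF2 and eIF2B. Eif2b2, the beta subunit of eIF2B, stood at 3.35, 3.54 and 3.59 in Wt and 3.46, 3.35 and 3.78 in Akt1+/- fat at 8 weeks, and at 3.91, 3.88, 3.86 and 3.97 in Wt and 3.89, 3.90, 3.98 and 4.02 in Akt1+/- fat at 35 weeks. The ages did not overlap, and the rise was 0.42 (SE 0.07, adjusted p = 0.0032). Eif5, the GTPase activator of eIF2, rose by 0.38 (SE 0.07, adjusted p = 0.0056), from at most 3.47 to at least 3.52. Eif2s2 rose by 0.31 (SE 0.08, adjusted p = 0.0161) and Eif1 by 0.27 (SE 0.06, adjusted p = 0.013). The falls were those of Ago4 by 0.68 (SE 0.13, adjusted p = 0.0047), Ago1 by 0.43 (SE 0.11, adjusted p = 0.0172), Eif2s3x by 0.41 (SE 0.05, adjusted p = 0.0006) and Eif2ak3 by 0.24 (SE 0.07, adjusted p = 0.0416). For Eif2s3x the older samples (2.86 to 3.03) lay below the younger ones (3.16 to 3.47). The Eif2ak3 call was lost under 6 of 10 other settings and in 10 of the 14 fits that left out 1 fat array, and with the mean of its probes the difference was -0.0007 (adjusted p = 0.996). With normexp and quantile normalization the calls of Ago1, Eif1 and Eif2s2 were lost as well. Those of Ago1 and Eif2s2 were also lost with the replicate number as a block. Erythroid markers summed to 8.11 to 9.34 in fat at 8 weeks and to 6.95 to 8.49 at 35 weeks, and their part was not tested.

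The age results differed between probes of 1 gene. Of the 13 genes called in liver that had further probes well above background on all liver arrays, 8 had a probe with the opposite sign (Ago4, Eif2a, Eif2s2, Eif2s3x, Eif3a, Eif4e2, Eif4e3 and Eif5). In muscle this held for 2 of 5 (Eif1 and Eif4g2) and in fat for 5 of 7 (Ago4, Eif2ak3, Eif2s2, Eif2s3x and Eif5). The probes of Ago4 in liver ran from -0.75 at chr4:125991956-125992015 to 1.05 at chr4:126010677-126010736 of mm8. For Eif2s3x the brightest probe, at chrX:90441725-90441784, gave -0.58, and those further along the chromosome gave -0.20 and 0.18. For Eif4e3 in liver the brightest probe gave 0.45 and the other -0.22. Averaging a gene's probes, 12 members were called in liver and 4 in fat, and the shares of all genes so called are not given here. The calls lost were those of Ago4, Eif2a, Eif2ak3, Eif2s2, Eif2s3x, Eif3a, Eif4b, Eif4e2, Eif4e3 and Eif5 in liver, Eif1, Eif1ax, Eif4g2 and Eif5a2 in muscle, and Ago1, Ago4, Eif2ak3, Eif2s2 and Eif2s3x in fat. Median scaling took 9 of the 11 rises in liver (Eif2s2, Eif3b, Eif3c, Eif4a3, Eif4e2, Eif4e3, Eif4ebp2, Eif4h and Eif5) and left Eif2ak2 and Eif5a2. Which exon or end of the transcript each probe reads was not analysed here. The genes with 2 or more such probes that all had 1 sign included Eif4b and Eif4a2, whose probes were lower in older liver and higher in older muscle.

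**Figure D5:**
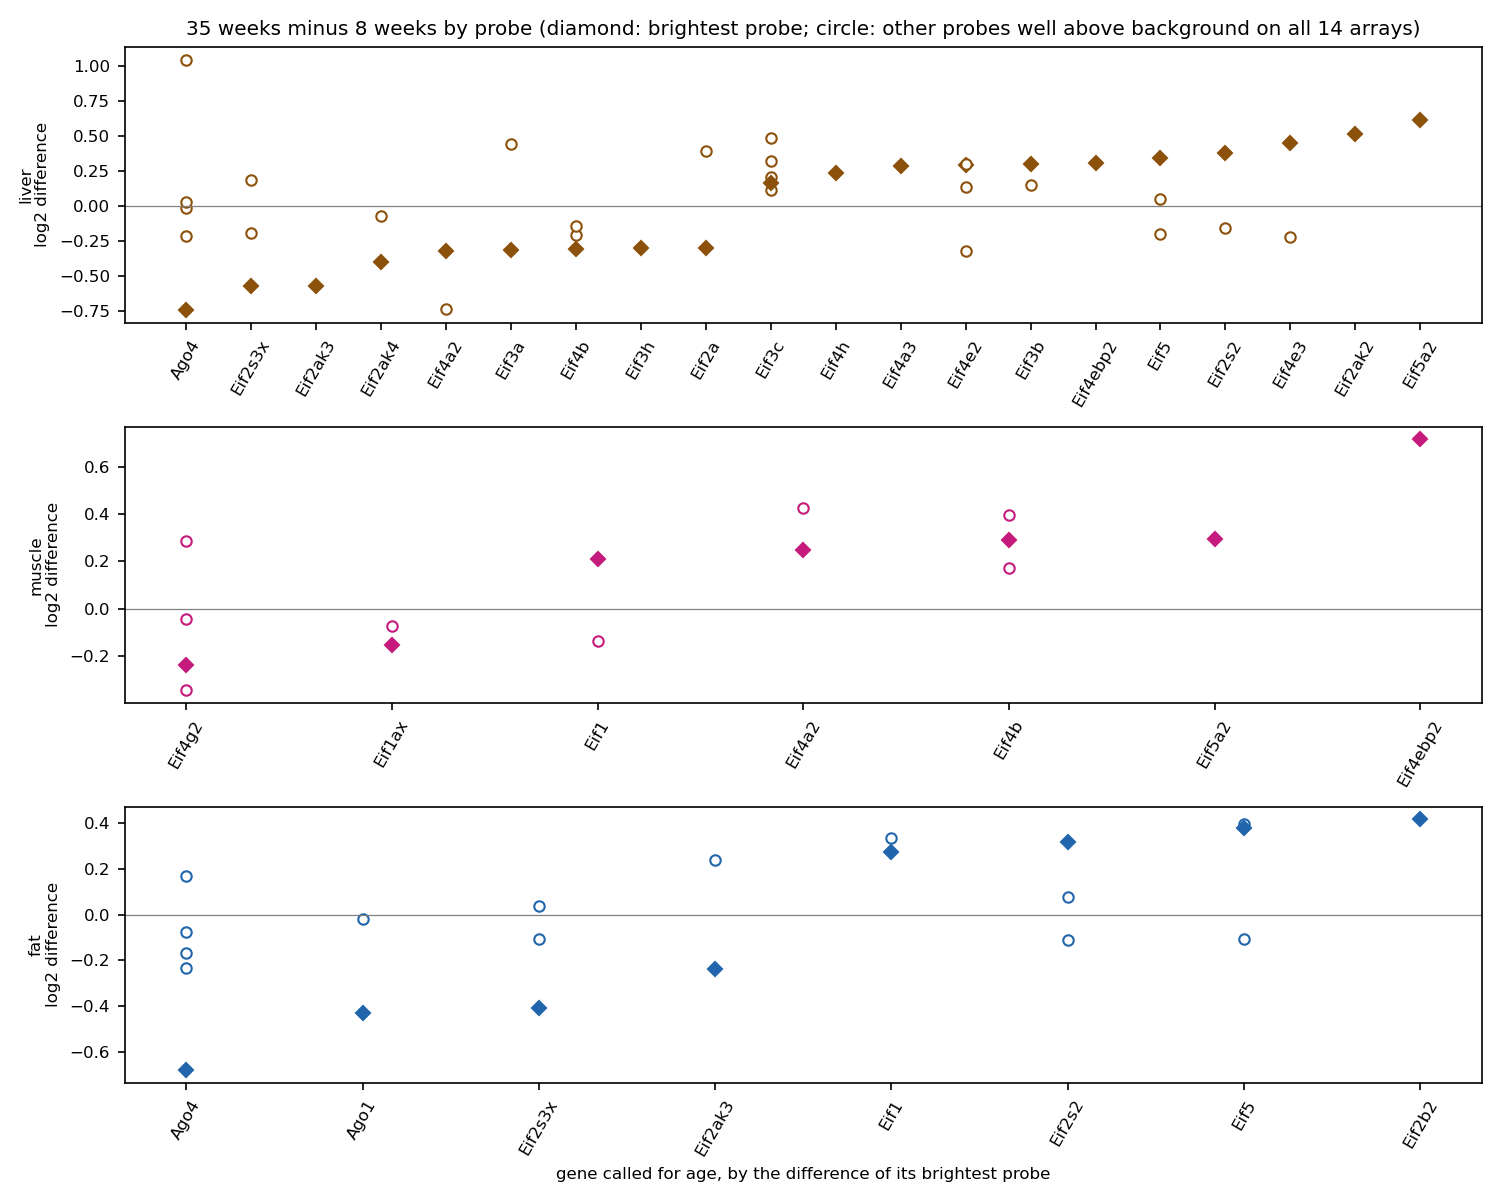
Difference between 35 and 8 weeks (log2 units) at the probes of the genes called for age, with the brightest probe of each gene marked. Only probes well above background on all arrays of the tissue are drawn. The probes of Ago4 in liver range from -0.75 to 1.05. Of the genes called in liver, 8 have a further probe, well above background on all liver arrays, on the other side of 0.

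The last comparison set the effects of the tissues against each other. The genotype effect differed for 0 members between liver and muscle, for 1 between liver and fat and for 1 between muscle and fat, where 0.896%, 4.26% and 0.74% of all genes were called. In limma 6 members had an unadjusted p under 0.05 between liver and muscle, as did 16.3% of all genes. Eif3g, an eIF3 subunit that binds RNA, differed by -0.14 in liver and 0.17 in fat, and the difference between these was -0.30 (adjusted p = 0.0362). Eif3d, a cap-binding eIF3 subunit, differed by -0.15 in muscle and 0.22 in fat, and the difference between these was -0.37 (adjusted p = 0.0446). No single-tissue value of these 2 genes was called. The Eif3g call was lost in 9 of the 42 fits that left out 1 array, with normexp (adjusted p = 0.271) and without the filter, and the Eif3d call in 25 of the 42, with the mean of its probes (adjusted p = 0.581) and without the filter.

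The age effect differed for 14 members between liver and muscle, 11 between liver and fat and 9 between muscle and fat, where 18.8%, 16.2% and 16.4% of all genes were called. These comparisons share tissues, so they are not independent of each other. The largest difference was that of Eif4ebp2, which rose in muscle by 0.72 and in liver by 0.31, against -0.40 in fat, where it was not called but passed under 5 other settings, the replicate block among them. The muscle minus fat difference was 1.12 and the liver minus fat difference 0.71. Eif2ak2 rose in liver by 0.51, against -0.26 in muscle, a difference of 0.77. Eif4b and Eif4a2 fell in liver and rose in muscle, with differences of -0.60 and -0.57. Ago4 fell in liver and fat and differed by 0.00 in muscle, giving a difference of -0.74 between liver and muscle, which the mean of its probes did not show (0.0284, adjusted p = 0.898).

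Genes of translation other than the members, Eif4e and Eif4ebp1 among them, were measured as a reference list of 36. Of these, 35 were tested in liver and all in muscle and fat. With age 3 rose and 5 fell in liver (19.8% and 15% of all genes did), 8 rose and 1 fell in muscle (16.8% and 14.4%), and 7 rose and 1 fell in fat (9.96% and 9.33%). For genotype, where the shares of all genes called were 0.829% in fat, 0% in muscle and 6.03% in liver, 1 fell in liver, Eef1d (by 0.26, adjusted p = 0.029), 0 were called in muscle by limma (7 at an unadjusted p under 0.05, 18.5% of all genes), and 1 fell in fat, Eef1a1 (by 0.42, adjusted p = 0.0281), both of them elongation factor genes. In liver the largest rise with age in this list was Eef2 (0.40) and next came Eif4e (0.30), the cap-binding protein itself. By genotype Eif4e differed by 0.23 in fat, -0.21 in muscle and 0.12 in liver, and Eif4ebp1 by 0.09, 0.14 and -0.23, none of them called.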

How the data were processed

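The authors hybridised Cy3-labelled cRNA from total RNA to 1-colour Agilent mouse arrays. The deposited scanner files hold processed signal intensities, background-subtracted and detrended by Agilent Feature Extraction (9.5.3.1 in the file headers, 9.1 in the submitters' processing notes) and not normalized between arrays. The deposited value table holds the authors' log2 values, scaled to the 75th percentile, and served as an alternative. Here each array's log2 intensities were shifted by their 75th percentile, leaving out control spots. Of all probes, 24375 were named through their accession, 6301 by symbol, 2426 by an older symbol and 8072 kept the array's name. Eif2d, Eif3m, Eif6 and Eif1ad stand on the array under other names and were not included. The 42 arrays fell into 12 groups, 12 slides and 5 scan days. A gene was tested where, in 1 group or more, 3 arrays read its brightest probe well above background. Genotype, age and their interaction were fitted per tissue with 1 mean per group, and tissues in 1 fit over all arrays (limma 3.58.1, R 4.3.3, moderated test, Benjamini-Hochberg threshold 0.05 over all genes tested). Of these steps, only the genotype test within a tissue was tried on simulated data. The scaling, the filter, the choice of probe and the fits for age, interaction and tissue were not. Precision is limited by the number of arrays. The study's methods state an older age than the 35 weeks of the labels used here.

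The members and lists were chosen with earlier results of these data known. Genes named with values are those called for genotype, or the 3 with the lowest p where a tissue had none, the 4 largest called changes each way for age and between tissues, fixed pairs of relatives, the kinases, and the 3 largest differences each way in the list of other translation genes. Samples of the same number deviated together at 35 weeks (correlations of 0.108 to 0.523 over all 12 pairs, where the number is also the position on the slide) but not at 8 weeks (-0.197 to 0.072). Alternatives were normexp with quantile normalization (offset 50), median scaling, the authors' values, other filters, the mean of all probes, replicate and slide blocks, 1 fit over all arrays, the two-way test of the study's methods and leaving out each array. Cell type markers were summed on the linear scale and given as log2. Serpina1c and Prss1 were not found on the array by name.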

Additional observations from a re-analysis of the deposited data

Results flagged for a closer look

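Of 216 groups of 4 arrays, over the 36 members named with values, 11 held 1 array far from the other 3 (Dixon's test at the 95% level, which chance alone passes in about 5% of groups). Eif2s2 stood at 5.05 in muscle Akt1+/- 35-week replicate 3, with the others at 5.40 to 5.43. On the same array Eif4g3 stood at 5.22, with the others at 5.80 to 5.89. Eif4a3 stood at 1.82 in muscle Wt 35-week replicate 4 (others 1.58 to 1.62) and Eif2s1 at 2.45 in replicate 1 of that group (others 2.61 to 2.63). In liver of 35-week Akt1+/- mice, Eif3c stood at 5.79 in replicate 1 (others 5.96 to 5.98) and Eif4a1 at 5.03 in replicate 4 (others 4.97 to 4.98). Eif5a stood at 3.95 in fat Wt 35-week replicate 4 (others 4.14 to 4.16), and Eif2s3x at 3.43 in liver Wt 35-week replicate 3 (others 3.17 to 3.21). In fat of 35-week Akt1+/- mice, Eif2ak2 stood at -0.16 in replicate 2 (others -0.57 to -0.52), Eif4b at 2.82 in replicate 1 (others 2.40 to 2.46) and Eif4e3 at 1.57 in replicate 4 (others 1.29 to 1.33).

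The effect of genotype or age differed between tissues, by the test of the difference itself, in 36 cases. For genotype these were Eif3g (liver minus fat -0.30) and Eif3d (muscle minus fat -0.37).

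For age, the liver change minus the muscle change was -0.74 for Ago4, -0.72 for Eif2ak3, -0.67 for Eif2s3x, -0.60 for Eif4b, -0.57 for Eif4a2, -0.40 for Eif3a, -0.33 for Eif1 and -0.25 for Eif3h. It was 0.77 for Eif2ak2, 0.54 for Eif2s2, 0.46 for Eif4e3, 0.30 for Eif4e2, 0.26 for Eif1ax and 0.25 for Eif4h.

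The liver change minus the fat change was -0.71 for Eif4ebp3, -0.65 for Eif1a, -0.45 for Eif4a2, -0.40 for Eif4b, -0.39 for Eif1, -0.37 for Eif3h and -0.32 for Eif3g. It was 0.71 for Eif4ebp2, 0.67 for Eif5a2, 0.46 for Eif4e3 and 0.28 for Eif4e2.

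The muscle change minus the fat change was 1.12 for Eif4ebp2, 0.67 for Ago4, 0.50 for Eif2s3x, 0.35 for Eif5a2 and 0.29 for Eif3a. It was -0.55 for Eif2ak2, -0.47 for Eif2s2, -0.37 for Eif2b2 and -0.28 for Eif1ax. Many of these calls were not stable. With each of 42 arrays left out in turn, the liver minus fat call was lost in 18 fits for Eif4ebp3, 15 for Eif1a, 13 for Eif4e3, 3 for Eif4e2 and 2 for Eif4b, the liver minus muscle call in 16 for Eif3h, 11 for Eif4e3 and 7 for Eif1ax, and the muscle minus fat call in 13 for Eif5a2, 12 for Eif2ak2, 2 for Eif3a and 1 for Eif1ax. With the mean of all probes in place of the brightest, the liver minus fat call ended for Eif1a, Eif4a2, Eif4b, Eif4e2, Eif4e3 and Eif5a2 (0.11, adjusted p = 0.811, limma), the liver minus muscle call for Ago4, Eif1, Eif1ax, Eif2ak3 (-0.21, adjusted p = 0.501), Eif2s2 (0.10, adjusted p = 0.556), Eif4e2 and Eif4e3, and the muscle minus fat call for Ago4, Eif1ax, Eif2s2 and Eif5a2. With normexp and quantile normalization it ended for Eif1, Eif3g, Eif4a2, Eif4b, Eif4e3 and Eif4ebp3 (liver minus fat) and for Eif1, Eif3h and Eif4e3 (liver minus muscle). With median scaling it ended for Eif4e2 and Eif4e3 (liver minus fat), Eif1ax, Eif4e2, Eif4e3 and Eif4h (liver minus muscle), and Eif3a and Eif5a2 (muscle minus fat). With no filter on dim probes it ended for Eif1a, Eif4e3 and Eif4ebp3 (liver minus fat), Eif3h (liver minus muscle), and Eif2ak2 and Eif5a2 (muscle minus fat). The genotype calls ended with no filter on dim probes, that of Eif3g also with normexp and quantile normalization, and that of Eif3d also with the mean of all probes. In every tissue the ages shared no slide and no scan day, so a difference between tissues cannot be told apart from one between slides or scans.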

How the results depend on the processing

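Of the counts of called members under other settings, 166 stayed within 1.5 times the count reported and 47 did not. For single members, 1048 values kept their direction and side of the threshold under other settings, 102 lost the call, 14 gained it and 15 reversed. With each array left out in turn, 3756 were kept, 207 lost the call, 5 gained it and 8 reversed. The small counts for genotype moved most. Where a count below stands without the share of all genes called under that setting, it shows only how the count moved. It does not show how the members stood against all genes. Depth is not given by arrays, and Eif2b3 and Eif2s3y are the members limited by signal over background. Where no cause is given here, the cause was not tested.

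Members called for genotype in liver over both ages (1 reported) were 14 with median scaling, 0 with no filter, 0 with slides treated as random and 4 when all 42 arrays shared a fit. At 8 weeks in liver (1 reported) they were 2 with normexp and quantile normalization, 0 with no filter, 2 with the mean of probes, 0 with the slide block and 4 in the fit over 42 arrays. At 35 weeks in liver (0 reported) median scaling gave 2, and for the interaction in liver (0 reported) the fit over 42 arrays gave 1. In muscle at 8 weeks (0 reported) normexp gave 1. In fat over both ages (1 reported) normexp, median scaling, no filter, the methods' test and the replicate block each gave 0 and the fit over 42 arrays gave 3. At 8 weeks in fat (1 reported) normexp gave 4, no filter 0, a filter asking every array to be above background 2, the slide block 2 and the fit over 42 arrays 5. At 35 weeks in fat (0 reported) the mean of probes gave 1. For the interaction in fat (0 reported) the mean of probes gave 1, the slide block 1 and the fit over 42 arrays 4.

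For age, the mean of probes gave 12 in liver (20 reported) and 4 in fat (8 reported), and the fit over 42 arrays gave 16 in fat. For the difference of the genotype effect between liver and fat (1 reported), normexp gave 0, median scaling 12, no filter 0, the mean of probes 3 and the replicate block 3. Between liver and muscle (0 reported) median scaling, probes above background on all arrays and the replicate block each gave 1. Between muscle and fat (1 reported) normexp gave 2, median scaling 3, no filter 0, all arrays above background 2 and the mean of probes 0. For the age effect between liver and fat (11 reported), normexp gave 6, median scaling 19 and the mean of probes 7, and between liver and muscle (14 reported) the mean of probes gave 8.

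With 1 array left out, the counts ranged from 0 to 1 for genotype in liver over both ages, for liver at 8 weeks, for the liver interaction and for the genotype effect between liver and muscle. They ranged from 0 to 3 for genotype in fat over both ages, for the fat interaction and for the genotype effect between liver and fat and between muscle and fat, from 0 to 4 for fat at 8 weeks, and from 6 to 12 for the age effect between liver and fat, where the 6 came without fat Wt 8-week replicate 2.

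The two-way test of the study's methods, at its unadjusted threshold of 0.01, passed 2 members for genotype, 21 for age and 1 for the interaction in liver (10.9%, 28.8% and 4.58% of all genes). In muscle it passed 4, 8 and 1 (5.55%, 26.7% and 2.21%), and for fat 3, 8 and 4 (6.62%, 19.2% and 7.85%). After Benjamini-Hochberg adjustment these were 1, 21 and 0 (5.25%, 33.3% and 0.0857% of all genes), then 0, 9 and 0 (0.0058%, 30.2% and 0%), and 0, 8 and 0 (0.551%, 18.8% and 1.78%).

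Some values reversed. With median scaling the 35-week genotype difference of Eif4a2 was -0.11 in liver and -0.0204 in muscle, and the age difference of Eif3c in liver -0.0333. With normexp the muscle minus fat difference of Eif2s1 was -0.0405, the liver minus muscle difference of Eif4ebp2 -0.0263 (-0.085 on wild-type arrays alone, and -0.0012 to 0.0609 with 1 array left out) and the age difference of Ago4 in muscle 0.0091 (-0.0346 to 0.0407 with 1 array left out). The 35-week difference of Eif4e3 in muscle was 0.0256 with normexp, and with 1 array left out it ranged from -0.177 (without Akt1+/- 35-week replicate 1) to 0.065 (without replicate 3). With the mean of probes the age difference in liver was 0.0204 for Ago4, 0.0461 for Eif2a, 0.0609 for Eif3a and -0.0047 for Eif2s2, the age effect of Ago4 in liver minus that in muscle was 0.0284, and that of Eif5a2 in muscle minus that in fat was -0.0717, and the liver minus muscle level of Eif5a2 was -0.284. The replicate block took the genotype calls of Eif1 in liver, Eif4a2 in liver at 8 weeks (adjusted p = 0.0602) and Eif4e3 in fat over both ages, and the age calls of Eif2a and Eif3c in liver and of Eif2ak3, Eif2s2 and Ago1 in fat. It made the 8-week liver genotype difference of Eif2ak3 and the age difference of Eif4ebp2 in fat pass the threshold.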

Other observations

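In the list of other translation genes, some of the widest differences lay in genes of the integrated stress response, which is set off by phosphorylated eIF2. Ddit3, a transcription factor of that response, differed by genotype by -1.09 in liver and -0.22 in muscle, Trib3 by 0.57 in muscle, -0.26 in liver and -0.27 in fat, and Chac1 by -0.44 in liver and 0.31 in fat. None of these was called, and Asns (0.43 in muscle) and Sesn2 (-0.21 in fat) were not called either. For age, 2 of the 8 genes of this response were called lower and 0 higher in liver, against 15% of all genes called lower. The mean at 35 weeks was lower in 8 of 8, with a median difference of -0.35, where that of all liver genes was 0.02. In fat 2 of 8 were called higher and 0 lower, against 9.96% of all genes called higher, with a median of 0.20. In muscle 0 of 8 were called, where 31.2% of all genes were. Sesn2 fell by 0.65 (SE 0.15, adjusted p = 0.0046) and Atf4 by 0.31 (SE 0.09, adjusted p = 0.0165) in liver, Chac1 rose by 0.61 (SE 0.17, adjusted p = 0.0256) and Ddit3 by 0.39 (SE 0.09, adjusted p = 0.0115) in fat, and Ddit3 (-0.59 in liver), Asns (-0.55 in liver) and Trib3 (0.50 in fat) were not called.

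The elongation factor gene Eef1a1 in fat had 8-week levels of 6.33, 6.60 and 6.67 in Wt and 6.72, 6.54 and 6.71 in Akt1+/- samples, which overlap. At 35 weeks it stood at 7.17, 7.19, 7.26 and 7.25 in Wt and 6.10, 6.25, 6.21 and 6.42 in Akt1+/- fat, with no overlap, lower by 0.97 (SE 0.10, adjusted p = 0.0003). The change of the genotype difference with age was -1.09 (SE 0.15, adjusted p = 0.0046, limma). It was 1 of 2 called for that change among the 36 listed genes in fat, against 1.57% of all genes. The other, Pabpc1, the cytoplasmic poly(A)-binding protein, had 8-week levels of 6.18, 6.24 and 6.74 in Wt and 6.83, 6.83 and 6.82 in Akt1+/- fat. At 35 weeks it stood at 7.18, 7.11, 7.28 and 7.17 in Wt and 6.70, 6.85, 6.67 and 6.83 in Akt1+/- fat, so that the Akt1+/- arrays lay above Wt at 8 weeks and below Wt at 35 weeks, and the change was -0.87 (SE 0.17, adjusted p = 0.0297). Pabpc1 is described here after its values were seen, and Eef1a1 was named for its difference over both ages, and these values were looked at after that. At 35 weeks the genotypes lay on separate slides and scan days in fat, so genotype, slide and scan cannot be told apart there. Adipocyte markers summed to 10.6 to 10.9 in Wt and 10.3 to 10.6 in Akt1+/- fat at 35 weeks, and hepatocyte markers to 6.76 to 7.04 and 6.34 to 6.59, with no overlap in either, and their part was not tested. Eef1a2, the related gene of muscle and nerve, differed in fat by 0.45 with genotype, which was not called, and rose by 0.70 with age (adjusted p = 0.0102).

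The other widest genotype differences in the list were, in liver, Gspt2 (0.75), Paip1 (0.19) and Dhx29 (0.16), in muscle Paip1 (-0.38), Eef2k (-0.22) and Mknk2 (0.23), and in fat Abce1 (0.32), none of them called. For age, Pabpc1 rose in liver (0.24), Eef2 (0.37), Eef1g (0.28) and Mcts1 (0.28) rose and Paip1 fell (by 0.43) in muscle, and Paip2 fell in fat (by 0.26). Eef2k (-0.25) and Eif4ebp1 (-0.20) in muscle and Ppp1r15b (-0.15) and Mknk1 (-0.13) in fat were not called.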
